A study of Mus musculus with 6 samples.

Results

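The MYC and MAX network is a set of transcription factors that meet as pairs on DNA, and 10 of its genes were followed here among the 57508 genes measured. The members were chosen by gene name: the 3 MYC genes (Myc, Mycn and Mycl), their partner Max, the MXD genes (Mxd1, Mxd3, Mxd4 and Mxi1), Mnt, and the related partner gene Mlx. The list was drawn up when the higher Myc level of the knockdown libraries was already known, so the differences between groups below are descriptions and are not independent support. RNA was sequenced from KPC1199, a mouse pancreatic tumour cell line, with 3 libraries of WT cells and 3 of cells with ACSL5 knockdown, as the genotype labels call them. The library names read siACSL5_CY3 for WT and siACSL5_2260 for knockdown, the knockdown titles say KO, and the labels explain neither name. All libraries come from a single cell line, no label gives a time after treatment, and none says whether replicates were separate cultures. The spread between libraries may therefore be technical.

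Proteins of this network carry a basic helix-loop-helix leucine zipper, and the authors' table lists the helix-loop-helix domain for all 10 members. A MYC protein binds DNA only as a dimer with MAX, prefers the E-box CACGTG, and activates genes of ribosome assembly, nucleotide synthesis and cell growth. MXD proteins and MNT compete for MAX, bind the same E-box, and recruit SIN3 corepressors with histone deacetylases. MLX is the partner of the nutrient sensors MondoA and ChREBP, and also dimerises with some MXD proteins and with MNT. In pancreatic ductal adenocarcinoma, MYC is known as a driver of tumour growth.

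Library totals lay between 21794244 and 29996194 expected counts. Levels are given as CPM, read counts relative to the library total after scaling by the trimmed mean of M-values (TMM), when 1 gene is compared between libraries, and as the deposited TPM, which is per length, when genes are compared with each other. Values of a group stand in the order of replicates 1, 2 and 3. Acsl5, the targeted gene, was at 342.4, 265.2 and 270.2 CPM in the WT libraries and at 49.8, 55.6 and 57.2 CPM in the knockdown libraries. WT replicate 1 stood apart: across genes, its log2 CPM correlated at 0.918 to 0.933 with the other libraries, which correlated at 0.979 to 0.996 with each other (genes are not independent replicates). In it the shortest 10% of genes was higher by a median of 1.03 log2 units than in the other libraries, and the longest 10% was at -0.94. The members are therefore described with it and without it. The keratin genes Krt8, Krt18 and Krt19, the highest of 9 listed epithelial genes, were at 1047 CPM or more in every library. Cdh1 was at 202 to 376 CPM, Krt7 at 90.4 to 155.3 CPM and Sox9 at 44.0 to 109.6 CPM. Epcam was lower, at 31.8 to 64.7 CPM, Cldn7 was at 2.35 to 4.70 CPM and Cldn4 at 0 in all 6 libraries. Of the marker lists of other cell types, 4 of 8 acinar genes (Ptf1a and Pnlip among them), 3 of 6 endothelial genes (Cdh5, Tek and Tie1) and 3 of 10 leukocyte genes (Adgre1 and Cd3e among them) were at 0 in all 6 libraries. Others were detected: acinar Cela1 was at 3.68 to 10.05 CPM and rose without WT replicate 1 (0.78), and endothelial Vwf was at 1.92 to 3.64 CPM and was not called. The leukocyte sum was 59.1 to 59.6 CPM in WT replicates 2 and 3, 86.9 CPM in WT replicate 1 and 78.7 to 83.8 CPM in knockdown libraries. It was almost all Cd14, at 54.7 to 55.2, 82.7 and 73.3 to 78.4 CPM in the same order, and 8 of the 10 genes were under 1 CPM in every library. The part of these markers in the results below was not tested.

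Without WT replicate 1, 5 members rose in knockdown cells, namely Myc, Mycn, Max, Mxd3 and Mnt, and Mxi1 fell. Here and below, called, rose and fell mean an adjusted p below 0.05 in edgeR over all genes tested. The 5 higher members stand beside 16.3% of the 15152 genes tested that were called higher, and the 1 lower member beside 18.0% called lower. Mycl, Mxd1, Mxd4 and Mlx were not called. Over all 6 libraries no member was called, and neither was any other gene (0% of 14679), although 2351 genes had an unadjusted p below 0.05. DESeq2 called Mycn and Mnt higher over the 6 libraries, where it called 2.39% of genes higher. Once the trend with gene length was removed from each library, edgeR called Mycn, Mxd3 and Mnt higher over the 6 libraries, against 3.01% of genes. All 10 members passed the filter on low counts in both fits. RNA of cells in bulk cannot tell more transcripts per cell from a larger share of cells with the transcript.

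**Figure D1:**
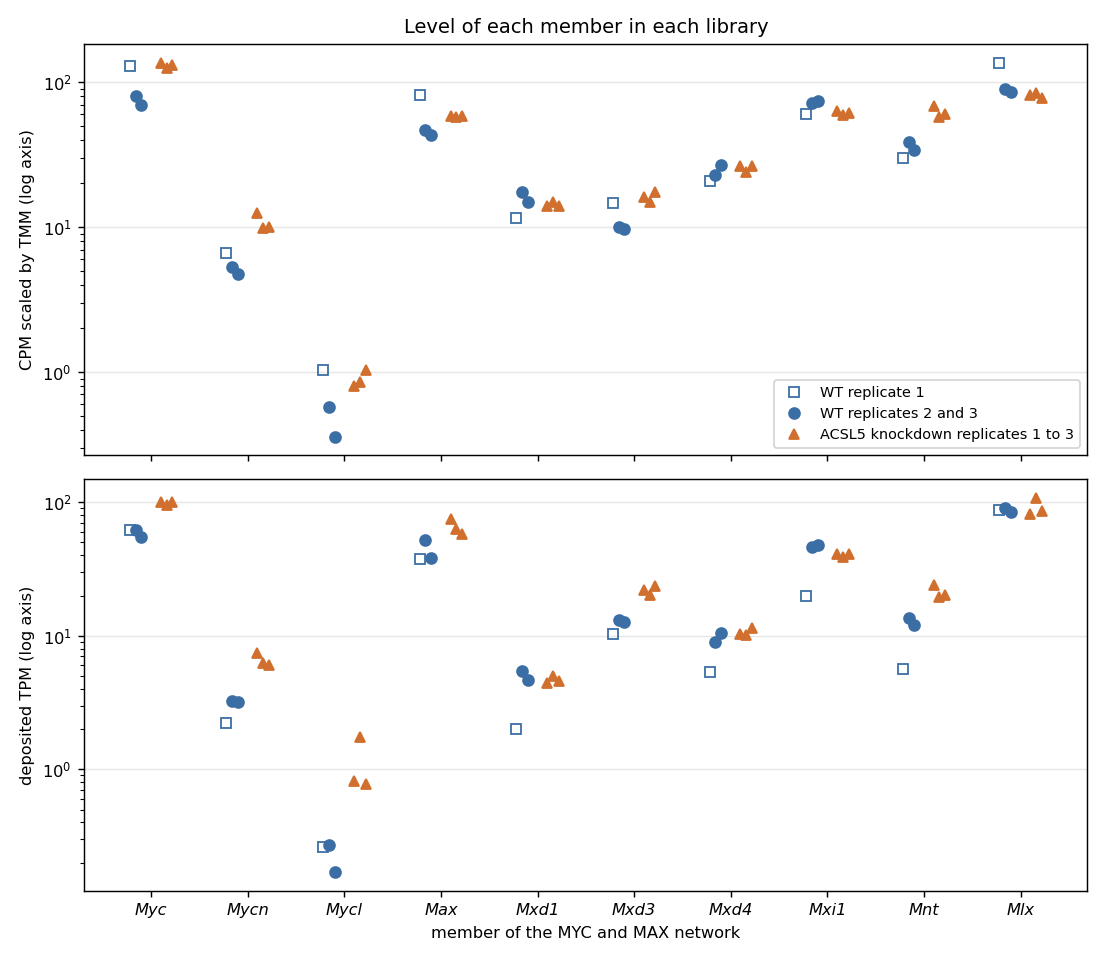
Level of each member in each of the 6 libraries, as CPM scaled by TMM (upper panel) and as deposited TPM (lower panel), both on log axes. Squares and circles are WT libraries and triangles are knockdown libraries. The triangles of Mycn, Mxd3 and Mnt lie above every WT library in both panels, while those of Myc, Mycl and Max do so in TPM only, because WT replicate 1 (open squares) is high in CPM.

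The MYC genes encode the activating partners of MAX. Myc, on mouse chromosome 15 (GRCm38, 61985391 to 61990374, plus strand), was at 129.1, 80.1 and 70.1 CPM in the WT libraries and at 136.4, 124.7 and 131.7 CPM in the knockdown libraries. WT replicate 1 lay within the knockdown range, and the other WT libraries lay well below it. The mean of knockdown cells was 130.9 ± 5.90 CPM (SD, n = 3), against 75.1 ± 7.08 CPM (SD, n = 2) in WT replicates 2 and 3, a ratio of 1.74. The log2 fold change, knockdown minus WT, was 0.79 (SE 0.0668) without WT replicate 1. With it the WT mean was 93.1 ± 31.5 CPM (SD, n = 3) and the log2 fold change 0.49 (SE 0.249). In TPM the groups did not overlap, with Myc at 62.4, 62.1 and 55.03 in WT and at 100.8, 95.5 and 99.4 in knockdown cells.

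Mycn, the MYC gene best known from neuroblastoma, was far lower than Myc and showed the largest difference of the called members. It lies on chromosome 12 (12936093 to 12941914, minus strand). WT libraries held 6.61, 5.28 and 4.74 CPM and knockdown libraries 12.5, 9.85 and 10.1 CPM, resting on 119 to 297 counts a library. Every knockdown library was above every WT library, WT replicate 1 included. The log2 fold change was 1.09 (SE 0.147) without WT replicate 1 and 0.96 (SE 0.197) with it. The retrogene Mycs, a copy of Mycn that could share its reads, had 0 counts in all 6 libraries.

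Mycl, first found in small cell lung cancer, was close to the limit of detection. It had 19, 13 and 11 counts in the WT libraries and 19, 23 and 28 in the knockdown libraries, or at most 1.04 CPM. The log2 fold change was 0.94 (SE 0.441) without WT replicate 1 and 0.48 (SE 0.445) with it, and it was not called in any setting tried. The deposited TPM of Mycl differed more, at 0.26, 0.27 and 0.17 in WT and 0.82, 1.74 and 0.78 in knockdown cells. On that scale 100 counts of Mycl were worth 1.37 to 2.08 TPM in WT libraries and 2.79 to 7.57 TPM in knockdown libraries. The deposited TPM of Mycl therefore differed between groups by more than its counts did. For Myc the same figure varied from 2.55 to 3.44 TPM, and for Max from 2.50 to 5.35 TPM.

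Max, the shared partner of MYC, MXD and MNT proteins, was at 81.3, 46.6 and 42.9 CPM in the WT libraries and at 58.4, 57.8 and 58.2 CPM in the knockdown libraries. The knockdown libraries were almost equal, between WT replicate 1 above them and the other WT libraries below. Its log2 fold change was 0.36 (SE 0.0607) without WT replicate 1 and 0.03 (SE 0.263) with it. Over the 6 libraries it turned to -0.08 when WT replicate 2 was left out and to -0.15 when WT replicate 3 was. In TPM every knockdown library was above every WT library, with Max at 37.3, 52.3 and 38.3 in WT and at 74.5, 62.8 and 57.6 in knockdown cells. On log2(TPM + 1) over 6 libraries it was at 0.61, not called, where the median of all genes was at 0.26. The position of WT replicate 1 thus differed between CPM and TPM. The other libraries differed as well: 100 counts of Max were worth 2.50, 4.98 and 2.90 TPM in the WT libraries. In the knockdown libraries they were worth 5.35, 4.01 and 3.65 TPM. On log2(TPM + 1) without WT replicate 1, Max was at 0.52 and no longer called (limma adjusted p = 0.0951).

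**Figure D2:**
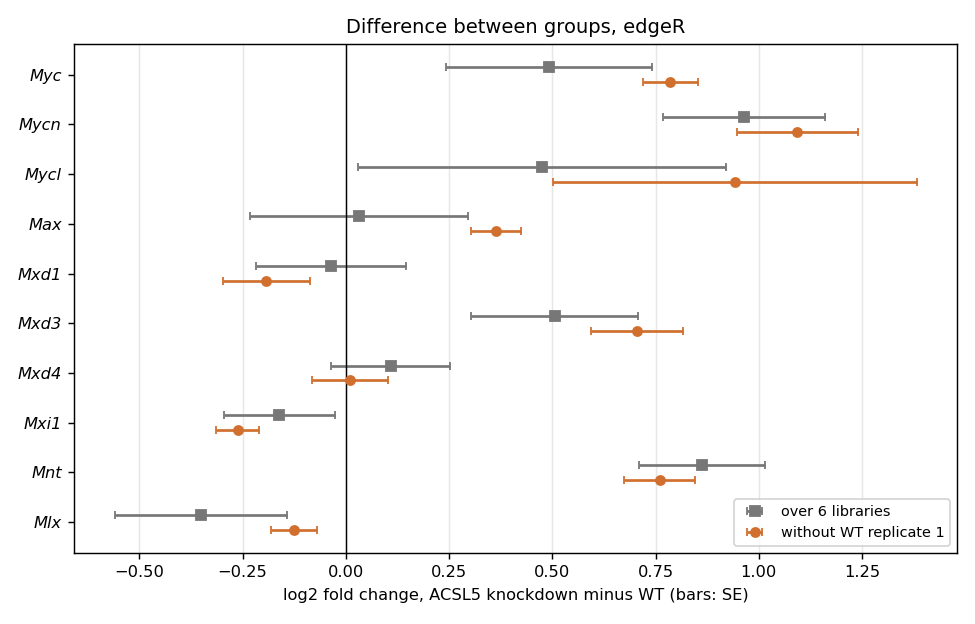
Log2 fold change of each member, knockdown minus WT, in edgeR over 6 libraries (squares) and without WT replicate 1 (circles), with the standard error as bars. Mycn is at 0.96 and 1.09 and Mnt at 0.86 and 0.76, while Max is at 0.03 over 6 libraries and at 0.36 without WT replicate 1.

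Among the antagonists, Mnt and Mxd3 rose without WT replicate 1, Mxi1 fell, and Mxd1 and Mxd4 were not called. Mnt encodes the most widely expressed MAX-binding repressor and lies on chromosome 11 (74830920 to 74845725, plus strand). It was at 29.9, 38.6 and 34.1 CPM in the WT libraries and at 68.7, 57.5 and 60.3 CPM in the knockdown libraries, with no overlap between the groups. The mean of 62.2 ± 5.82 CPM (SD, n = 3) was 1.71 times that of WT replicates 2 and 3, 36.3 ± 3.203 CPM (SD, n = 2). The log2 fold change was 0.76 (SE 0.0857) without WT replicate 1 and 0.86 (SE 0.153) with it. With 59.5% GC, Mnt has the most GC-rich transcript of the members (median of genes tested 49.2%), and fold changes followed GC content across genes (Spearman 0.322 without WT replicate 1). Once the GC trend was removed from each library, its log2 fold change was 0.46 without WT replicate 1, still called, and 0.54 over 6 libraries.

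Mxd3, an MXD gene known to be expressed in proliferating cells and in S phase, was at 14.6, 9.97 and 9.74 CPM in the WT libraries and at 16.2, 14.9 and 17.6 CPM in the knockdown libraries. WT replicate 1 lay just below the lowest knockdown library. On the log2 scale the difference was 0.71 (SE 0.111) without WT replicate 1 and 0.51 (SE 0.202) with it. With the GC trend removed, Mxd3 (56.5% GC) was at 0.56 without WT replicate 1, still called, and at 0.36 over 6 libraries. Its exons share 105 bases with Prelid1 on the opposite strand, a gene with 6014 to 12924 counts a library. Whether the counting used strand is not given in the sources used here, so reads in that stretch cannot be assigned to either gene. Prelid1 also rose without WT replicate 1, at 0.24 (edgeR adjusted p = 0.00989). The part of shared reads in the Mxd3 values was not tested.

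Mxi1 moved the other way. This MXD gene, also a known target of hypoxia-inducible factors, was at 60.4, 72.0 and 73.8 CPM in the WT libraries and at 63.4, 59.8 and 61.3 CPM in the knockdown libraries. Knockdown libraries lay below WT replicates 2 and 3, whereas WT replicate 1 fell within their range. On the log2 scale the difference was -0.26 (SE 0.0517) without WT replicate 1 and -0.16 (SE 0.134) with it. Without WT replicates 1 and 3 it stood at the threshold, at -0.25 with an edgeR adjusted p that rounds to 0.05. On log2(TPM + 1) over 6 libraries it took the opposite sign, 0.19, where the median of all genes was also shifted, to 0.26.

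Mxd1, an MXD gene induced as cells differentiate, was at 11.5, 17.5 and 14.9 CPM in the WT libraries and at 13.9, 14.8 and 14.1 CPM in the knockdown libraries. Its log2 fold change was -0.19 (SE 0.105) without WT replicate 1 and -0.04 (SE 0.181) with it. Mxd4 showed the smallest difference of the members without WT replicate 1, 0.01 (SE 0.0915). With that library it was at 0.11 (SE 0.145), farther from 0 than Max and Mxd1, and its knockdown values of 24.0 to 26.3 CPM lay inside the WT range of 20.9 to 27.0 CPM. Neither was called.

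Mlx, the partner of MondoA and ChREBP, was at 136.3, 90.3 and 85.9 CPM in the WT libraries and at 82.2, 84.8 and 77.9 CPM in the knockdown libraries. Its log2 fold change was -0.13 (SE 0.0552) without WT replicate 1 and -0.35 (SE 0.209) with it. In TPM its groups overlapped (85.1 to 89.9 in WT and 81.6 to 107.4 in knockdown cells) and the sign turned to 0.06 on log2(TPM + 1), with WT replicate 1 and without it. Its exons share 385 bases with Psmc3ip on the opposite strand, which was at 0.02 without WT replicate 1.

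Counted by overlap alone, 3 members (Mycn, Mxd3 and Mnt) had every knockdown library above every WT library in CPM, as did 18.7% of the 14679 genes tested, and 1 member (Mlx) had every knockdown library below, as did 15.6%. Without WT replicate 1 the counts were 6 above, with Myc, Mycl and Max added, beside 30.4% of genes, and 3 below (Mxd1, Mxi1 and Mlx), beside 29.3%. In TPM over all 6 libraries the same 6 members were above, beside 25.6% of genes. The median log2 fold change of the 10 members was 0.53 without WT replicate 1 and 0.29 with it, beside -0.01 and -0.02 over all genes tested.

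In TPM, the order of the members in WT libraries ran from Mlx (mean 87.6 ± 2.41, SD, n = 3) through Myc (59.8 ± 4.17), Max (42.6 ± 8.38), Mxi1 (38.0 ± 15.9), Mxd3 (11.97 ± 1.48), Mnt (10.4 ± 4.21), Mxd4 (8.31 ± 2.65), Mxd1 (4.06 ± 1.84) and Mycn (2.90 ± 0.569) to Mycl (0.233 ± 0.0551). Neighbours overlapped from Max to Mxi1 and along the run from Mxd3 to Mycn, and the other neighbours were apart in every WT library. In knockdown libraries Myc (98.6 ± 2.77 TPM, SD, n = 3) stood first, although its range overlapped that of Mlx (91.7 ± 13.7). Mycn (6.58 ± 0.783 TPM) exceeded Mxd1 (4.66 ± 0.265) in each of these libraries. Max was at 65.0 ± 8.63 TPM, Mxi1 at 40.4 ± 1.03, Mxd3 at 21.9 ± 1.68, Mnt at 21.3 ± 2.43, Mxd4 at 10.6 ± 0.747 and Mycl at 1.11 ± 0.543. Mxd3 and Mnt still overlapped.

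Summed TPM shows the balance of activating and repressing partners of MAX in RNA, not in protein. The 3 MYC genes together were at 64.9, 65.6 and 58.4 TPM in the WT libraries and at 109.2, 103.4 and 106.3 TPM in the knockdown libraries. Myc alone made up 92.3% to 96.1% of this sum in every library. The MXD genes and Mnt together were at 43.0, 87.5 and 87.9 TPM in WT and at 101.6, 93.8 and 100.9 TPM in knockdown cells. The MYC sum divided by the MXD and MNT sum was 0.750 and 0.664 for WT replicates 2 and 3, and reached 1.07, 1.10 and 1.05 among the knockdown libraries. WT replicate 1, however, was at 1.51, above all knockdown libraries, so the order of the groups in this ratio depends on that library. Relative to Max, the MYC sum was 1.26 to 1.74 in WT and 1.47 to 1.84 in knockdown libraries, which overlapped.

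**Figure D3:**
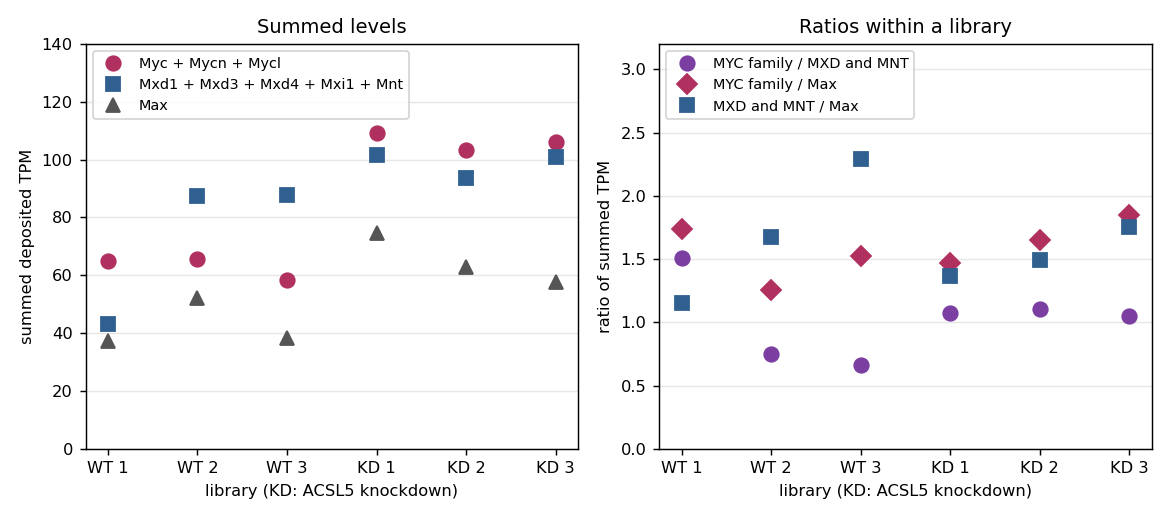
Summed deposited TPM of the MYC genes, of the MXD genes with Mnt, and of Max in each library (left), and ratios of these sums within a library (right). The MYC sum lies between 58.4 and 65.6 in WT and between 103.4 and 109.2 in knockdown libraries, while its ratio to the MXD and MNT sum is 1.51 in WT replicate 1 and 0.664 to 1.10 elsewhere.

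The E-box that MYC-MAX and MXD-MAX dimers prefer, CACGTG, was searched in promoter windows from RefSeq (GRCm38.p6), each running from 250 bases before to 50 bases after an annotated start. The motif is its own reverse complement, so 1 search covers both strands, and it was the only motif searched. Windows were matched by symbol for 9 members (11 windows, 3 of them of Mxi1), and Myc was not matched. Of these 9, 4 held the motif, Max, Mnt, Mxd4 and Mlx, beside 8.1% of 27025 genes with a window. They are shown because the motif the network's proteins prefer stands at 4 of its own genes, at different distances from the start. A match of letters does not show binding. Each line gives the E-box in capitals with 12 bases on either side, 5′ to 3′ on the strand of the gene.
Max: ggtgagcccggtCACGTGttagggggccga
Mnt: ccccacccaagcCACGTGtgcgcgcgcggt
Mxd4: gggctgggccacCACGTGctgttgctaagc
Mlx: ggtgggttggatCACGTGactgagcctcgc

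In Max the motif begins 3 bases before the annotated start (chr12:76962234-76962263 for the bases shown, minus strand). In Mlx it begins 40 bases before it (chr11:101087238-101087267, plus strand), in Mnt 123 bases before (chr11:74830789-74830818, plus strand) and in Mxd4 219 bases before (chr5:34187912-34187941, minus strand). Of these 4, Max and Mnt rose without WT replicate 1, and Mxd4 and Mlx were not called. The letters were not in the windows of Mycn, Mycl, Mxd1, Mxd3 or Mxi1, of which Mycn and Mxd3 rose and Mxi1 fell.

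The other genes of the network and its cofactors were taken from lists written down from general knowledge with earlier results of these data known, and their counts and values below leave out WT replicate 1 unless stated. The shares of all genes called there, 16.3% higher and 18.0% lower, stand beside each list's own shares, and over all 6 libraries no gene of any list was called. None of the other partners of MAX and MLX was called: Mga, which pairs with MAX, was at 0.11, Mlxip (MondoA) at -0.10 and Mlxipl (ChREBP) at 0.28. Of 18 MYC cofactors, 7 rose (38.9%), 3 fell (16.7%) and 8 were not called, with a median of 0.13, and of 0.25 over 6 libraries. The acetyltransferase genes Crebbp (0.44) and Kat2a (0.41) and the helicase gene Ruvbl1 (0.46) rose, while Trrap, the scaffold of MYC-bound acetyltransferase complexes, fell by 0.22 on the log2 scale. Of 13 corepressor genes used by MXD proteins and MNT, 2 rose, 2 fell (15.4% each) and 9 were not called. Sin3b was at 0.54 and Sap30 at 0.43, whereas the deacetylase genes Hdac1 and Hdac2 were at -0.13 and -0.24. The corepressors had a median of -0.05, beside -0.01 over all genes, and of -0.21, beside -0.02, over 6 libraries. With WT replicate 1 included, Trrap was at 0.15 and Sap30 at -0.39, the opposite sign in each, while Ruvbl1 was at 0.11 and Sin3b at 0.13. Crebbp was then at 0.74, Hdac1 at -0.21 and Hdac2 at -0.52.

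MYC protein is short-lived, and of 21 genes of its turnover 6 rose, 6 fell (28.6% each, beside 16.3% and 18.0% of all genes) and 9 were not called, with a median of 0.04. The ubiquitin ligase gene Huwe1 was at -0.36, the deubiquitinase gene Usp36 at 0.37, and the kinase genes Aurka, whose product shields MYCN from degradation, and Plk1 at 0.30 and 0.40. Over all 6 libraries Huwe1 was at 0.05, Usp36 at 0.61, Plk1 at 0.72 and Aurka at 0.17. Of 18 regulators of Myc transcription and mRNA, 6 rose (33.3%), 4 fell (22.2%) and 8 were not called, with a median of 0.03, and of 0.22 over 6 libraries. Pvt1, the long noncoding RNA gene next to Myc, was at 11.5, 9.84 and 8.21 CPM in the WT libraries and at 13.1, 14.5 and 13.0 CPM in the knockdown libraries, a log2 fold change of 0.57 (SE 0.122). Igf2bp1, which binds and protects Myc mRNA, was at 0.62, Zfp36, which promotes decay of mRNAs with AU-rich elements, at 0.71, and Ctnnb1 (beta-catenin) at -0.20, or -0.08 over 6 libraries.

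Of 68 tested genes known to be activated by MYC (of 69 listed), 31 rose, 5 fell and 32 were not called, with a median of 0.19. This is 45.6% higher and 7.4% lower, beside 16.3% and 18.0% of all genes. Targets of MYC were listed with the higher Myc of these libraries known, so the count is no independent evidence of its direction. Ppan of ribosome assembly was at 33.4, 41.2 and 40.4 CPM in the WT libraries and at 68.4, 64.6 and 66.5 CPM in the knockdown libraries, a log2 fold change of 0.69 (SE 0.0567). Odc1, the first enzyme of polyamine synthesis, was at 0.58, the prohibitin gene Phb at 0.52 and the nucleolar Nop2 at 0.46. With WT replicate 1 included, Odc1 was at 0.36 and Phb at 0.14, since that library, at 243.1 CPM of Phb, lay above every knockdown library (179.6 to 184.4 CPM). Against the list, the nucleolar chaperone gene Npm1 was at -0.39, the translation factor gene Eif4e at -0.37 and the lactate dehydrogenase gene Ldha at -0.20 (the last 2 chosen after their values were seen). With WT replicate 1 included, Npm1 was at -0.72, Eif4e at -0.51 and Ldha at -0.51. Over all 6 libraries none of the 68 was called and the median was 0.07. On log2(TPM + 1) without WT replicate 1, 17 of the 68 were called higher, beside 1459 of the 13881 genes tested.

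Of 14 genes known to be repressed by MYC, 4 rose (28.6%), 3 fell (21.4%) and 7 were not called, beside 16.3% and 18.0% of all genes. Their median was 0.12 and turned to -0.07 over 6 libraries. The DNA damage response gene Gadd45a (1.30), the receptor gene Pdgfrb (0.73) and the matrix gene Thbs1 (0.67) rose, while Btg2, which restrains proliferation, was at -0.38 and Ndrg2 at -0.27. With WT replicate 1 included, Gadd45a was at 0.77, Thbs1 at 1.01 and Ndrg2 at -0.49. Pdgfrb is also in the list of fibroblast markers, whose sum was 358.7 to 368.7 CPM in WT replicates 2 and 3, 225.4 CPM in WT replicate 1 and 292.9 to 311.9 CPM in knockdown libraries. The knockdown libraries thus lay between WT replicate 1 and the other WT libraries. Most of the sum was Col3a1, at 164.1 to 255.2 CPM, and Pdgfra, at 46.9 to 91.4 CPM. Both fell (-0.27 and -0.62), opposite to Pdgfrb, and with WT replicate 1 included they were at -0.08 and -0.36. Of the 8 listed genes, 4 were under 1 CPM in every library, and 1 of these, Lum, was at 0 throughout. The part of these markers in the result was not tested. Of 8 genes listed as targets of MondoA and ChREBP, the partners of MLX, 1 rose (12.5%), 3 fell (37.5%) and 4 were not called. These shares stand beside 16.3% and 18.0% of all genes, and the median was -0.17. Whether each listed gene is a target in these cells was not tested. Txnip, which limits glucose uptake, was at 0.19 and Acaca of fatty acid synthesis at -0.36, with Pklr at -0.30 and G6pc3 at -0.28. With WT replicate 1 included, Acaca was at -0.05, Pklr at -0.14 and G6pc3 at -0.51.

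**Figure D4:**
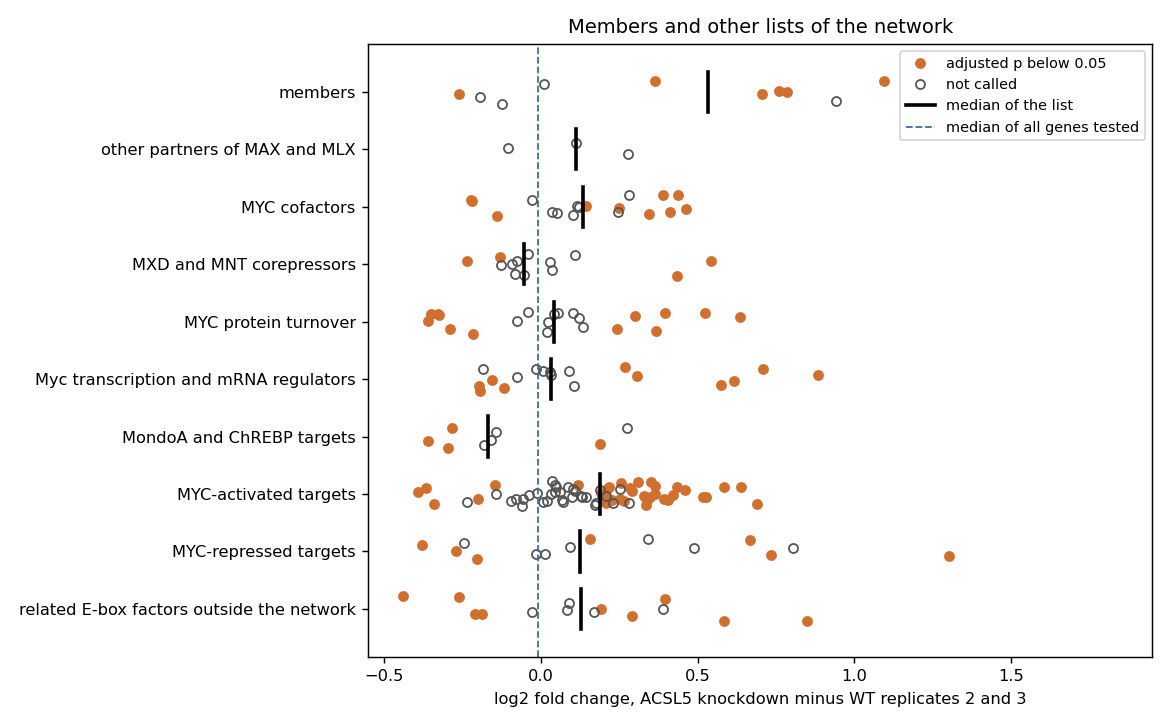
Log2 fold changes, knockdown minus WT replicates 2 and 3, of the members and of 9 other lists, 1 point per gene, filled where the gene was called. Black bars are list medians and the dashed line is the median of all genes tested (-0.01). The medians of the members (0.53) and of the MYC-activated targets (0.19) are the highest drawn.

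The genes whose pattern over the 6 libraries was most like that of Myc were found among 10070 tested genes that averaged 5 CPM or more, by the Euclidean distance between log2 CPM profiles centred on their own means. They were the adaptor gene Trip6 (distance 0.0553), the pseudokinase gene Trib3 (0.148), the matrix protease gene Mmp3 (0.161), the amino acid transporter gene Slc3a2 (0.169) and the complex I subunit gene Ndufs7 (0.179). Trip6 was at 47.7, 30.4 and 25.2 CPM in the WT libraries and at 50.7, 46.4 and 48.4 CPM in the knockdown libraries, so that it shares with Myc the high value of WT replicate 1. For Mxd4, the member with the smallest difference without WT replicate 1, the nearest were the topoisomerase gene Top2b (0.0571), Hsf2 (0.0735), Tank (0.0822), Etaa1 (0.0869) and Kdsr (0.1).

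**Figure D5:**
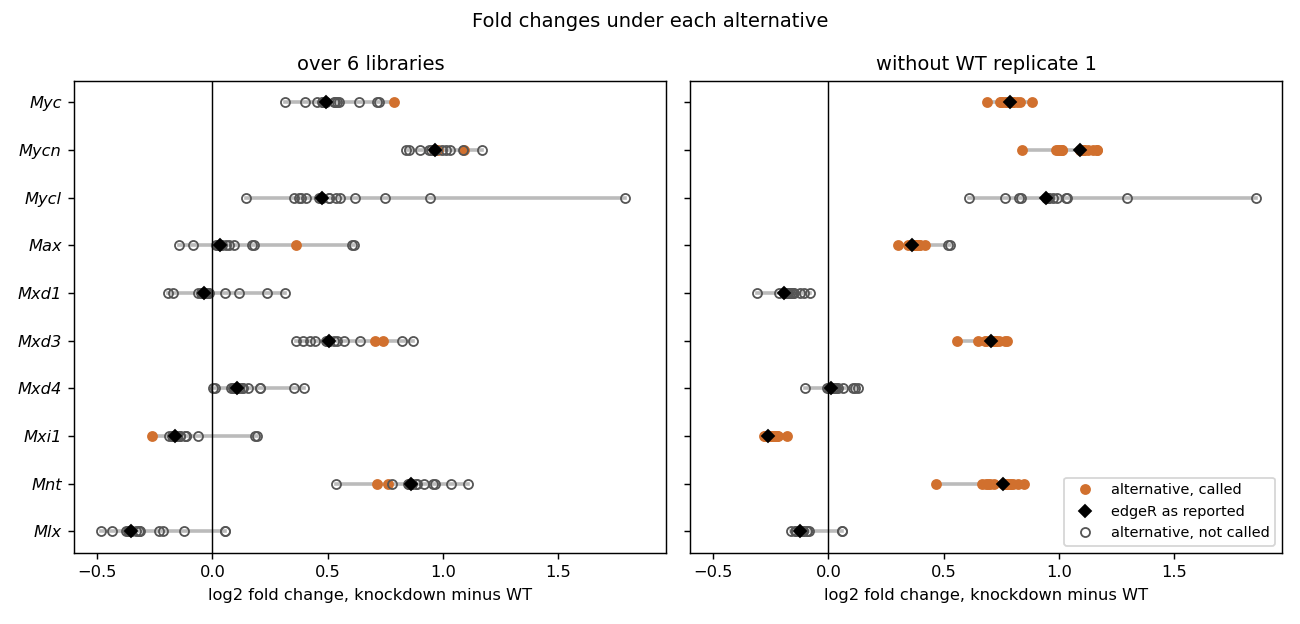
Log2 fold change of each member, knockdown minus WT, under every alternative tried (circles, filled where called) and as reported (diamonds), over 6 libraries (left) and without WT replicate 1 (right). Without WT replicate 1, Myc, Mycn, Mxd3 and Mnt are called under every alternative, Max is not called on the TPM scale, and Mxd4 lies on both sides of 0.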

How the data were processed

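The members and gene lists were chosen with earlier results of these data known. The authors deposited expected counts and TPM for 57508 genes in 6 libraries. Per the submitters' processing notes, fastp, HISAT2, StringTie and DESeq2 were used, with no versions or roles, and the builds hg38 and GRCh38 are named although the identifiers are mouse Ensembl genes. Neither the quantifier nor the strandedness is given in the sources used here. Gene positions and GC content came from GENCODE M21 (GRCm38).

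Counts were rounded, filtered with filterByExpr, scaled by TMM and compared with the robust quasi-likelihood F test of edgeR 4.0.16 in R 4.3.3, two-sided, with Benjamini-Hochberg adjustment over all genes and a threshold of 0.05. The fit was made over 6 libraries and without WT replicate 1. The SE of an edgeR log2 fold change is its absolute value divided by the square root of its F statistic. Alternatives were DESeq2 1.42.0, its size factors, library totals, 2 filters, limma 3.58.1 on log2(TPM + 1) and log2(TPM + 0.1), no robust estimation, removal of length or GC trends (lowess, span 0.3), a replicate block, and each library left out. The script was tested on simulated data. No set test was run. Named genes are all members, up to 4 called genes per list by smallest p whose knockdown libraries lie on 1 side of WT replicates 2 and 3, and the strongest called gene against the list. The 5 genes nearest to Myc and to Mxd4 were added. Eif4e, Ldha and marker genes given beside the marker sums were chosen after their values were seen. Some results are not reported here.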

Additional observations from a re-analysis of the deposited data

How the results depend on the processing

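Over 6 libraries, the 0 genes called became 1 with library totals, 4 without a filter, 5 without robust estimation, 724 in DESeq2, 892 with the length trend removed, and 0 to 5193 when single libraries were left out, the highest without WT replicate 1. The 0 members called became 2 in DESeq2, 3 with the length trend removed and 0 to 6 when single libraries were left out. MYC-activated targets called higher numbered 0 over 6 libraries. They were 1 of 68 in DESeq2 and 2 of 68 with the length trend removed, beside 2.39% and 3.01% of all genes called higher. With single libraries left out they were 0 to 31, beside 0 to 2471 of all genes. Called lower was 1 with the length trend removed, beside 450 of 14679 genes. With single libraries left out 0 to 5 were called lower, beside 0 to 2722 of all genes. These target counts were added after the data were seen.

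Without WT replicate 1, the 5193 genes called became 2467 on log2(TPM + 1), 2569 on log2(TPM + 0.1) and 2599 to 6188 when another library was also left out, and members called were 5 or 6 throughout. MYC-activated targets called higher fell from 31 to 17 on both TPM scales and called lower from 5 to 3. All genes called higher fell from 2471 to 1459 and 1549 on these scales, and called lower from 2722 to 1008 and 1020. With another library left out they ranged from 19 to 38 higher and from 3 to 5 lower. Where 1 WT library was left, its spread was taken from the knockdown libraries.

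Signs turned over 6 libraries for Mxd1 (0.053 with library totals, 0.24 and 0.31 on log2(TPM + 1) and log2(TPM + 0.1), -0.19 to 0.12 with single libraries left out), Mxi1 (0.19 on both TPM scales), Mlx (0.056 on both) and Max (-0.15 to 0.36 with single libraries left out). Without WT replicate 1 they turned for Mlx (0.058 and 0.059 on these TPM scales) and Mxd4 (-0.10 to 0.13 with another library left out). Myc, Mycn, Mycl, Mxd3 and Mnt were positive in all 17 alternatives over 6 libraries and all 16 without WT replicate 1 that tested them, Mycl being untested with the 1 CPM filter. The cause of these changes was not tested.

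With the replicate number as a block, 0 members were called over 6 libraries, beside 0 of 14679 genes. Without WT replicate 1 the block fit called 6 members, 5 higher and 1 lower, beside 2843 and 2910 of 15152 genes. Deviations of same-numbered libraries from the mean of their group correlated at -0.132, 0.042 and -0.194. WT replicate 1, which stood apart, shapes the WT mean and so all 3 values. They therefore cannot show whether the numbers pair the libraries, and the labels do not say. Depth limits Mycl, at 11 to 28 counts.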

Other observations

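Factors outside the network that bind related E-boxes were counted in the same way without WT replicate 1: 5 of 14 rose (35.7%), 4 fell (28.6%) and 5 were not called, beside 16.3% and 18.0% of all genes, with a median of 0.13. Tfeb, a driver of lysosome genes, was at 23.5, 24.5 and 21.1 CPM in WT replicates 1, 2 and 3 and at 41.9, 39.0 and 43.0 CPM in knockdown replicates 1, 2 and 3, a log2 fold change of 0.85 (SE 0.0868) without WT replicate 1 and 0.84 with it. The groups did not overlap, and WT replicate 1 lay with the other WT libraries. Srebf2, which drives cholesterol synthesis genes, was at 0.40, the E protein gene Tcf3 at 0.59 and its relative Tcf12 at -0.44. With WT replicate 1 included, Srebf2 was at 0.67 and Tcf12 at -0.14. Over 6 libraries none of the 14 was called.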
